A study of Mus musculus with 8 samples.

Results

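The Ighv genes are the variable (V) segments of the mouse immunoglobulin heavy chain locus. They were taken from the RefSeq table of the GRCm38 build as all genes on chromosome 12 whose symbol begins with Ighv. This gave 183 of the 49939 genes used, 120 typed as V segments and 63 as V segment pseudogenes, in 16 families. They span chr12:113572929-116009954, about 2.44 Mb, with a median length of 294 bp. The group was chosen by measured values, namely the loss of the peaks at Ighv8-4 and Ighv1-47 in co-culture, so the culture values below describe that choice and no test is given for them.

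The assay was ATAC-seq, where the Tn5 transposase cuts DNA that is accessible, and the cells were BV2, an established mouse microglial cell line. BV2 cells were grown alone or on GL261 mouse glioma cells, and each culture was kept for 16 h at 21% oxygen (normoxia) or below 0.1% oxygen (hypoxia). Each of the 4 groups has 2 libraries that the labels call biological replicates, so 8 libraries were compared, and the single BV2 and GL261 lines limit what the groups can stand for. The labels state fixation with formaldehyde, a sort of CD45+ or GFP+ cells and lysis of 50000 of them, so a co-culture library can hold some glioma cells.

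A heavy chain gene is assembled in developing B cells, where the RAG1 and RAG2 recombinase joins one V segment to a D and a J segment. RAG binds a recombination signal sequence beside each segment, made of a conserved heptamer, a spacer and a nonamer. The V segments arose by repeated duplication, so many are close copies of each other. Microglia are myeloid cells and do not assemble heavy chain genes. Mouse heavy chain V segments are read toward lower chromosome 12 coordinates, so the recombination signal lies at the low-coordinate edge of each one.

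Sequence beside the segments was taken from RefSeq tables of GRCm38.p6, which gave 5 promoters of other genes in the locus and the microRNA pair Mir7094-1 and Mir7094-2. The last 60 bases of the Gm40899 promoter run into Ighv1-23 and show where the recombination signal sits. The capitals mark CACTGTG, the reverse complement of the consensus heptamer CACAGTG, at chr12:114764443-114764449, directly before the first base of Ighv1-23 at 114764450. One or other of these heptamers, searched on both strands, occurs in 6.81% of the 32851 promoters of the same length in the table, so the match is a description.
Ighv1-23 low-coordinate edge, chr12:114764398-114764457, plus strand: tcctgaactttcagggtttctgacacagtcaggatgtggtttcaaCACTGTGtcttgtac

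Repeated sequence can be seen directly in the other pieces. The promoters of the non-coding genes Gm30948, Gm30996 and Gm40900 lie 145 to 441 kb apart among the family 1 and family 8 segments. Aligned with overhanging ends and gaps left out of the count, Gm30948 and Gm30996 were identical at 97.3% of 264 aligned bases. Gm30948 and Gm40900 were identical at 94.6% of 261 aligned bases, and Gm30996 and Gm40900 at 93.8% of 225. The 7 pairs that include Gm40899 or Gm51964, aligned with the same settings, reached 67.9% to 75.3%. Those values cover 117 to 248 aligned bases broken by gaps into 14 to 44 blocks, where the similar pairs had 2 or 3 blocks. A run of 50 letters occurs in all 3 of the similar promoters, at chr12:115262439-115262488, chr12:115407438-115407487 and chr12:115703580-115703629, on the plus strand.
Shared run of Gm30948, Gm30996 and Gm40900: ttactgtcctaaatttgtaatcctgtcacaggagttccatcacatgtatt

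The Mir7094-1 hairpin lies 36 bp from Ighv1-2 and the Mir7094-2 hairpin 12 bp from Ighv1-5. Over 60 bases they differ by 1 base, A5G counted from 1 at the 5′ end of Mir7094-1, which is capitalised in both. Neither hairpin had a peak within 1 kb in any library.
Mir7094-1, chr12:114469407-114469466, minus strand: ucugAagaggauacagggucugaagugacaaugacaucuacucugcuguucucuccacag
Mir7094-2, chr12:114513635-114513694, minus strand: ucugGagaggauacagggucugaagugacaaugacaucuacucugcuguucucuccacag

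The similar promoters did not share the same peaks. A peak overlapped the Gm30948 promoter in 6 libraries, the Gm40900 promoter in the 4 monoculture libraries, and the Gm30996 promoter in 1 library. How reads that match several copies were placed is not given in the sources used here, and its part in any value below was not tested.

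A segment was counted when a peak lay within 1 kb of it. In monoculture normoxia 30 and 37 segments had a peak, and in monoculture hypoxia 28 and 42. In co-culture normoxia 20 and 34 had one, and in co-culture hypoxia 14 and 14. The co-culture hypoxia libraries were the lowest of the 8, and the other groups overlapped each other.

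Over the libraries, 133 segments had no peak in any list, 50 had a peak in at least 1, and 12 had one in all 8 (6 when peaks wider than 10 kb are left out). The 50 make 27.3% of the segments, where 38.3% of all genes, which are longer, and 12.7% of other genes of up to 500 bp had a peak in at least 1 library. The 12 were Ighv1-50, Ighv1-53, Ighv8-6, Ighv1-54, Ighv1-55, Ighv1-56, Ighv8-7, Ighv8-8, Ighv1-58, Ighv1-62, Ighv8-9 and Ighv8-10. They make 6.56% of the segments, where 13.1% of all genes and 3.72% of other genes of up to 500 bp had a peak in all 8 libraries. Family 1 supplied 7 of its 92 segments and family 8 supplied 5 of its 16.

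All 12 lie between Ighv1-50 and Ighv8-10, a stretch of 400 kb that holds 23 segments of these families (chr12:115119748-115519640), and each of the 23 had a peak in at least 1 library. The stretch was delimited after its values were seen, by the first and last of the 12, so that none outside it had a peak in all 8 by construction. Of the 132 segments nearer the D and J segments, which include every family, 11 had a peak in any library. Of the 28 segments beyond Ighv8-10, 16 had a peak in any library. Families 3, 6, 7, 9, 10, 12, 13, 14, 15 and 16 had no peak in any library.

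**Figure D1:**
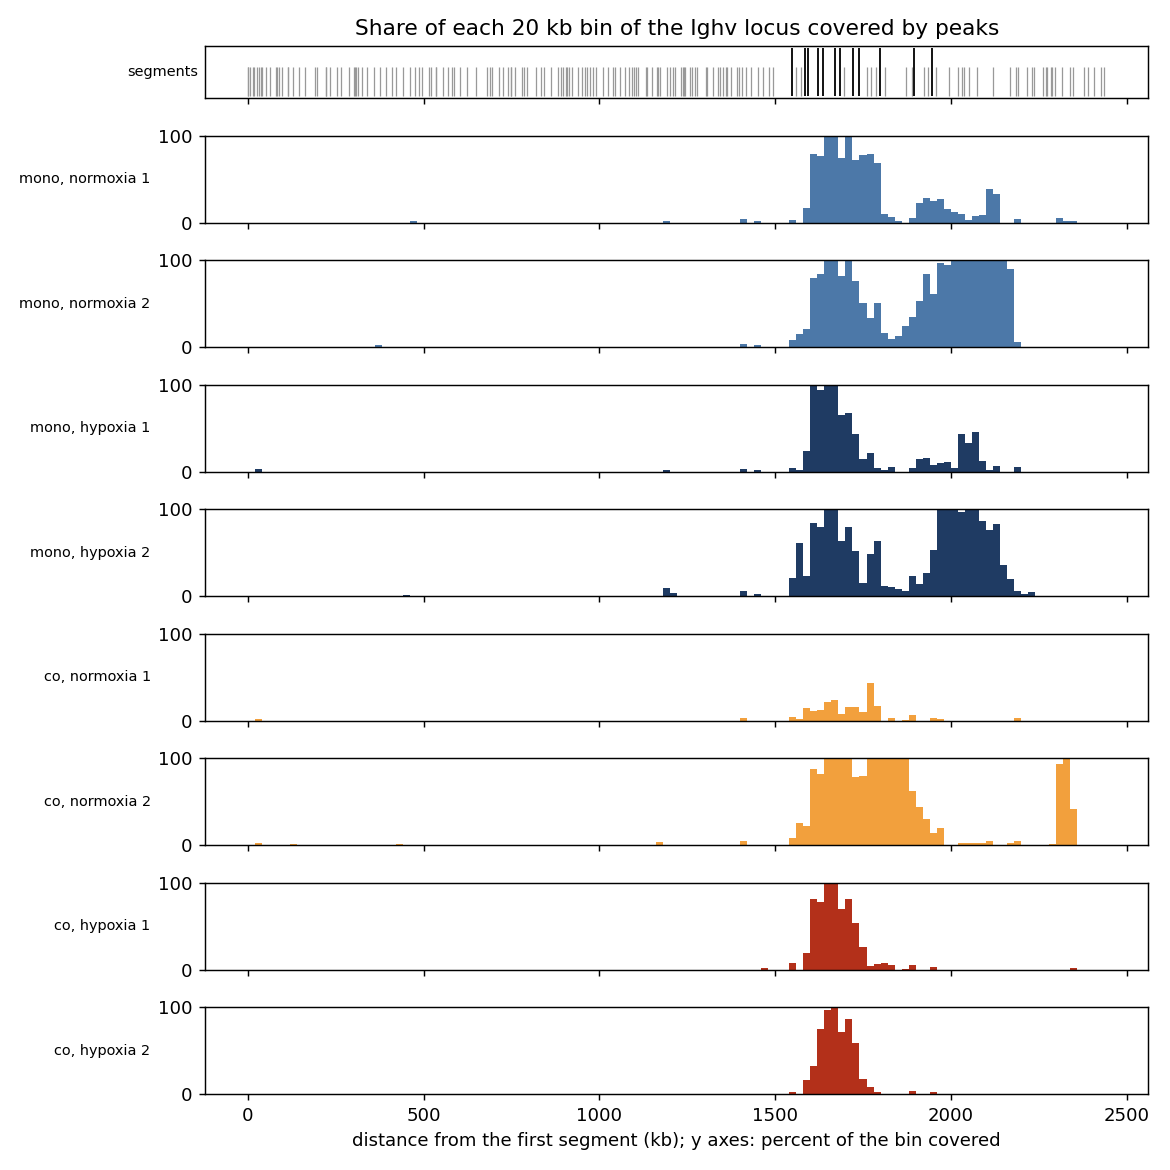
Percent of each 20 kb bin covered by peaks (y axes, 0 to 100) against distance from the first Ighv segment in kb (x axis), 1 panel per library. Ticks in the top panel are the 183 segments, with the 12 that had a peak in all 8 libraries drawn taller and black. Coverage is close to 0 over the first 132 segments in every library, and co-culture hypoxia shows 1 main block, in the middle stretch.

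Between Ighv1-50 and Ighv8-10, 19 and 23 segments had a peak in monoculture normoxia, 17 and 23 in monoculture hypoxia, 16 and 23 in co-culture normoxia, and 14 and 14 in co-culture hypoxia. Beyond Ighv8-10 the counts in the same order were 8 and 11, 8 and 13, 2 and 7, and 0 and 0. Co-culture hypoxia had segments with a peak in the middle stretch alone, since its 2 libraries also had none of the first 132. The limits of the stretch fix part of this contrast, and the difference between stretches was not tested.

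The share of Ighv segments with a peak ran from 7.65% to 22.95% over the 8 libraries. It ran from 0% to 0.617% of 162 Igkv genes, from 0% to 2.31% of 130 Trav genes and from 2.86% to 5.71% of 35 Trbv genes. Of 1428 Olfr genes 0.28% to 1.19% had one, of 373 Vmn1r genes 0.268% to 1.88%, and of 272 Vmn2r genes 2.57% to 5.88%. The Ighv range did not overlap that of any of these clusters. It did overlap that of 6399 other genes of up to 500 bp, 5.44% to 9.83%, which in co-culture hypoxia, at 9.83% and 9.08%, lay above the 7.65% of Ighv segments in both libraries. Among all genes the share was 19.95% and 16.7% in monoculture normoxia, 28.4% and 29.0% for monoculture under hypoxia, 29.1% and 30.2% in co-culture normoxia, and 33.1% and 30.2% in co-culture hypoxia, where the Ighv share was lowest.

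Some peaks near the segments were very broad. Peaks covered 9.21% and 18.0% of the locus in monoculture normoxia, 7.14% and 15.4% in monoculture hypoxia, 1.82% and 15.0% in co-culture normoxia, and 5.37% and 4.72% in co-culture hypoxia. In 3 groups the replicates lay far apart, and co-culture hypoxia lay inside the range of co-culture normoxia. The widest peak near a segment was 196831 bp in monoculture normoxia replicate 2, over the 8 segments from Ighv8-11 to Ighv1-71. It was 146607 bp in co-culture normoxia replicate 2, over the 7 from Ighv1-59 to Ighv1-62-3, and 2254 bp, at Ighv1-61, in co-culture normoxia replicate 1.

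Peaks wider than 10 kb in the locus numbered 5 and 6 in monoculture normoxia, 3 and 5 in monoculture hypoxia, 0 and 4 in co-culture normoxia, and 3 and 3 in co-culture hypoxia. Each whole list held 69 to 126 peaks of this size, so most lay outside the locus. Such a peak gives a call to every segment under it. Counting only peaks up to 10 kb wide, 24 and 23 segments had a peak in monoculture normoxia, 24 and 32 in monoculture hypoxia, 20 and 19 in co-culture normoxia, and 11 and 11 in co-culture hypoxia. The monoculture and co-culture ranges, which overlapped in normoxia in the lists as deposited, did not overlap at either oxygen level without wide peaks. Of the 12 segments with a peak in all 8 libraries, 6 (Ighv1-50, Ighv1-53, Ighv8-6, Ighv1-58, Ighv8-9 and Ighv8-10) had one in all 8 without wide peaks, and Ighv1-55 and Ighv1-56 had one in 1 library.

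**Figure D2:**
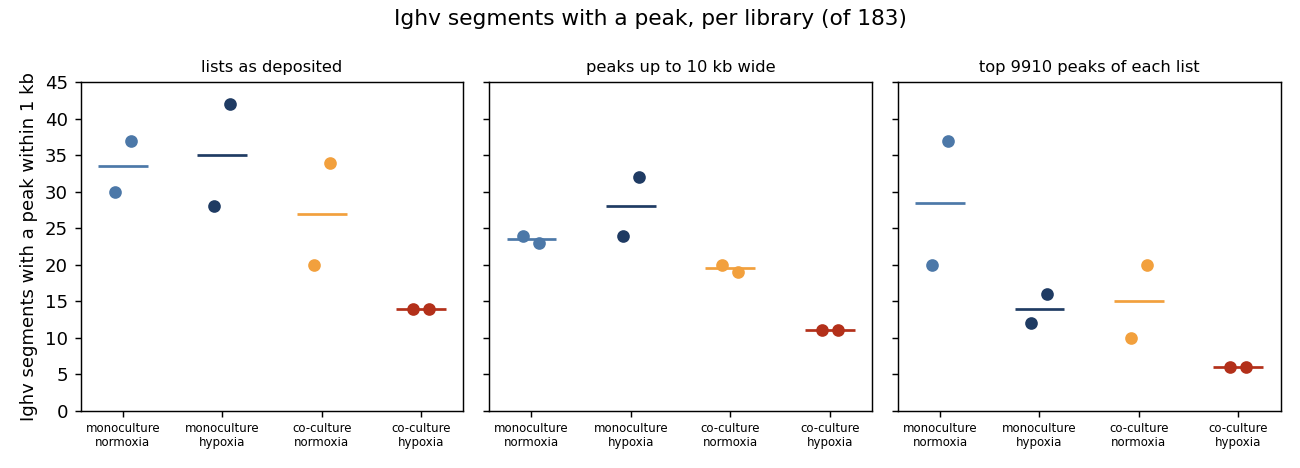
Number of Ighv segments with a peak within 1 kb (y axis) by group (x axis), for the lists as deposited, for peaks up to 10 kb wide, and for the 9910 highest-ranked peaks of each list. Points are libraries and lines are means of 2. Co-culture hypoxia is lowest in each panel, at 14 and 14, 11 and 11, and 6 and 6.

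The lists differ in length, from 9910 to 29658 peaks, so the count was repeated with the 9910 highest-ranked peaks of each. It gave 20 and 37 segments in monoculture normoxia, 12 and 16 in monoculture hypoxia, 10 and 20 in co-culture normoxia, and 6 and 6 in co-culture hypoxia. Co-culture hypoxia again lay below the other 6 libraries.

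In the lists as deposited, the mean difference in segments with a peak was -13.75 for co-culture minus monoculture and -5.75 for hypoxia minus normoxia, against a pooled SD between replicates of 7.42 (n = 2 per group). The culture difference was -6.5 in normoxia, within that SD, and -21 in hypoxia. The oxygen difference was 1.5 in monoculture, within that SD, and -13 in co-culture. In equal-number lists (pooled SD 7.12) the culture difference was -13.5 in normoxia and -8 in hypoxia, and the oxygen difference was -14.5 in monoculture and -9 in co-culture. Which oxygen level or culture held the larger difference, and the sign of the oxygen difference in monoculture, thus changed with the length of the lists. Without peaks wider than 10 kb (pooled SD 2.87), the culture differences were -4 and -17 and the oxygen differences 4.5 and -8.5. The overall oxygen difference was -2.25 without replicate 1 of monoculture hypoxia or replicate 2 of co-culture normoxia, and -9.25 without the other replicate of either group.

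Marker genes of several cell types moved with the groups, as did the share of all genes given above. Of 12 glioma and glial marker genes, 0 and 0 had a peak within 1 kb in monoculture normoxia, 2 and 3 in monoculture hypoxia, 4 and 2 in co-culture normoxia, and 7 and 4 in co-culture hypoxia, with Olig1, Olig2, Sox9, Egfr and Fabp7 at 0 throughout. Sox2 and Pdgfra (3 libraries each), Nes (2) and Gfap (1) had a peak in co-culture libraries and in no monoculture library. Vim and S100b had one in both monoculture hypoxia libraries and Cspg4 in replicate 2 of them, while S100b had none in co-culture normoxia. Of 12 microglia and macrophage markers 5 and 4, 9 and 9, 10 and 10, and 9 and 7 had a peak in the same order, with Csf1r, the receptor that maintains microglia, Ptprc, which encodes CD45, and P2ry12 in all 8 libraries and Aif1 in none. The part of the glioma cells in the lower Ighv counts was not tested, and fewer cells with an open segment cannot be told apart from a less open segment in each cell. Among B lineage markers, Rag2 had a peak in all 8 libraries, Blnk in 4 and Ebf1 in 3, while Cd79a, Cd79b, Ms4a1, Pax5, Vpreb1, Igll1, Rag1 and Cr2 were at 0 in every library.

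The strongest peaks sat at Ighv8-6 and Ighv1-58. A peak is ranked here by its percentile, the percent of peaks in the same list whose deposited −log10 p is at or below its own. Ighv8-6, a V segment at chr12:115165777-115166077, stood at 99.0 and 99.5 in monoculture normoxia, 99.7 and 99.9 in monoculture hypoxia, 99.1 and 98.2 in co-culture normoxia, and 98.1 and 91.2 in co-culture hypoxia. Ighv1-58, at chr12:115312166-115312597, stood at 99.5 and 99.5, 99.2 and 99.6, 99.2 and 99.2, and 95.7 and 93.8 in the same order. One or the other was the highest Ighv segment in each library, and both were lowest in the co-culture hypoxia libraries.

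Peaks at both segments kept a width near 1 kb, 890 to 1522 bp at Ighv8-6 and 949 to 1349 bp at Ighv1-58. Solving the deposited fold and p for the reads behind them gave 97 and 116 fragments at the Ighv8-6 summit in monoculture normoxia, 207 and 293 in monoculture hypoxia, 138 and 148 in co-culture normoxia, and 148 and 78 in co-culture hypoxia. At Ighv1-58 the counts were 104 and 121, 154 and 207, 139 and 176, and 106 and 90. These numbers are not scaled for depth, which the lists do not give.

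The local background that the deposited values imply was high at these segments. At Ighv8-6 it was 9.78 and 10.2 times the most common background of the library in monoculture normoxia, 9.89 and 13.5 times in monoculture hypoxia, 9.56 and 8.62 times in co-culture normoxia, and 6.82 and 4.95 times in co-culture hypoxia. The lowest values were again the co-culture hypoxia libraries.

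Over all segments with a peak in a library, the median percentile of the best peak was 51.5 and 50.0 in monoculture normoxia, 35.7 and 42.6 in monoculture hypoxia, 56.1 and 75.1 in co-culture normoxia, and 55.3 and 50.3 in co-culture hypoxia. The difference for co-culture, which had fewer segments with a peak, minus monoculture was 14.3, but in equal-number lists it was -10.6. For hypoxia minus normoxia it was -12.2, and 14.7 in equal-number lists (pooled SD 7.38). The median width of peaks within 1 kb was 650 and 1202 bp, 784 and 1081 bp, 766 and 1011 bp, and 1003 and 1028 bp in the same order of groups. The width differences, 22.5 bp for culture and 66.5 bp for oxygen, lay within the pooled SD of 238 bp.

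Among the 12 segments with a peak in all libraries, the median percentile was 83.7 and 83.2 in monoculture normoxia, 88.0 and 93.0 in monoculture hypoxia, 67.2 and 86.0 in co-culture normoxia, and 70.1 and 57.3 in co-culture hypoxia. Ighv8-10, a pseudogene, stood at 81.6 and 71.9, 83.7 and 92.1, 54.0 and 66.7, and 21.2 and 27.8 in the same order. Ighv8-9 stood at 62.3 and 53.1, 54.5 and 77.5, 26.4 and 48.4, and 14.8 and 10.5. At both, the 4 monoculture libraries ranked above the 4 co-culture libraries. At 6 of the 12 (Ighv1-50, Ighv8-6, Ighv1-54, Ighv1-58, Ighv8-9 and Ighv8-10) both co-culture hypoxia libraries ranked below the other 6. The share of all genes with this order was not taken, so nothing is read from the count.

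Counted as merged regions, 9 of 31 had a peak in all 8 libraries, where 15.6% of all regions did (6375 regions). Both co-culture hypoxia libraries ranked below both monoculture hypoxia libraries at 9 of 9, where 35.1% of all such regions did so, and above them at none, where 26.7% did. They ranked below both co-culture normoxia libraries at 7 of 9, against 34.0%, and above them at none, against 21.4%. Co-culture normoxia ranked below monoculture normoxia at 6 of 9, against 4.24%, and above it at none, against 55.3%. Hypoxia ranked above normoxia in monoculture at 3 of 9, against 53.7%, and below it at none, against 7.53%. A merged region is ranked by its best peak, and the widest of the 9 spans 146642 bp and 7 segments. By segment, co-culture hypoxia ranked below monoculture hypoxia at 9 of the 12 and below co-culture normoxia at 7. Co-culture normoxia ranked below monoculture normoxia at 6, hypoxia ranked above normoxia in monoculture at 4, and each reverse order held at none. No share of all genes was taken for these. Ranks from lists of different length show no change in a region itself, and these comparisons share libraries with those behind the choice of the segments.

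**Figure D3:**
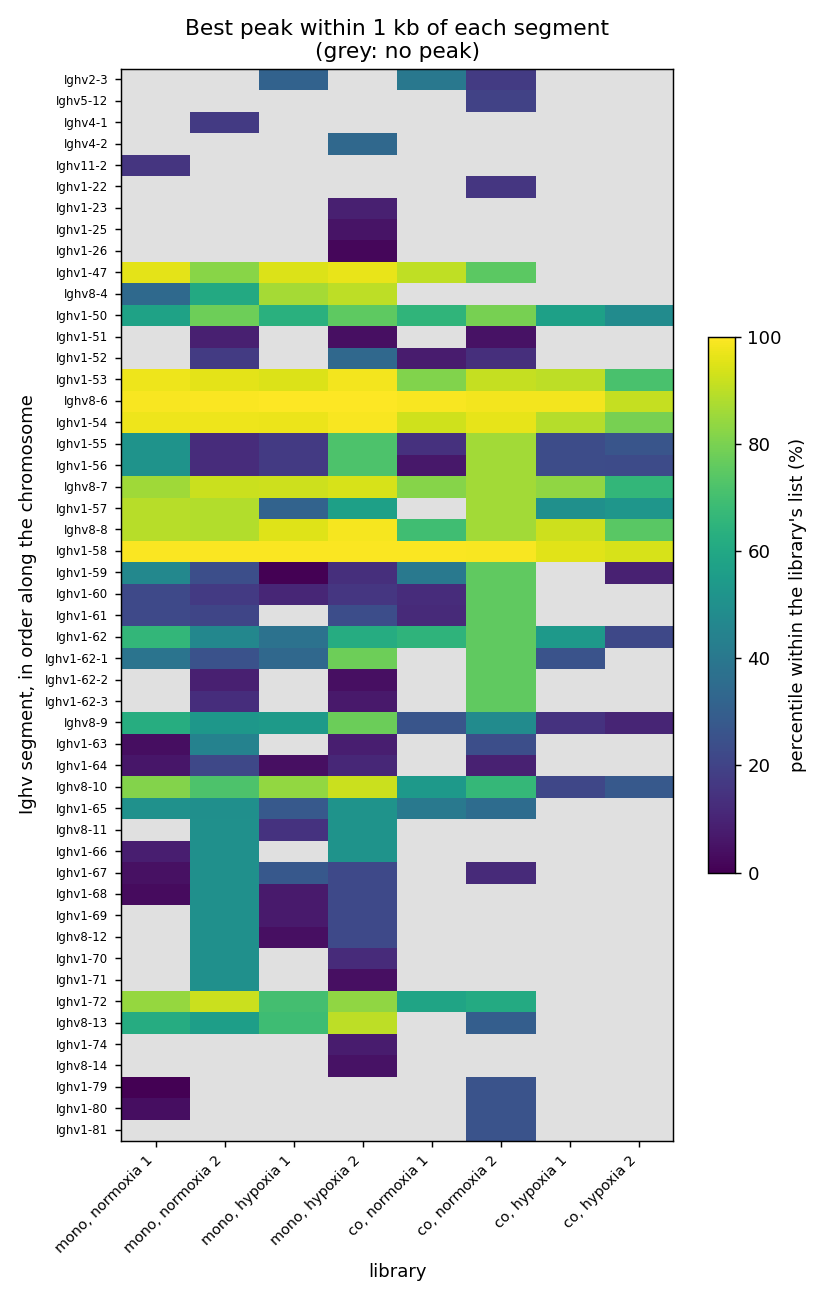
Percentile of the best peak within 1 kb (colour, percent of the library's own list at or below it) for the 50 segments with a peak in any library (rows, in chromosome order) in the 8 libraries (columns); grey means no peak. Ighv8-6 and Ighv1-58 are high throughout, Ighv1-47 and Ighv1-72 are grey in co-culture hypoxia alone, and Ighv8-4 is grey in all 4 co-culture libraries. Long runs of one colour in a column are segments under 1 wide peak.

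Most summits of peaks up to 10 kb wide lay at the low-coordinate edge of a segment, the side of the recombination signal. For each segment and library the best peak up to 10 kb wide gave 164 summits. Of these 120 (73.2%) lay within 200 bp of the low edge and nearer to it than to the other, 5 (3.05%) lay by the high edge, and 39 (23.8%) lay elsewhere. A segment counts once per library with such a peak, so recurrent segments weigh more in these shares. The 1 kb window reaches equally far beyond both edges. Ighv1-23, whose heptamer is shown above, was among the exceptions, with its 1 summit at -595 bp and no peak over the printed bases in any library.

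The position was shared by all groups. By the low edge lay 15 of 24 and 18 of 23 summits in monoculture normoxia and 16 of 24 and 20 of 32 in monoculture hypoxia. In co-culture normoxia it was 15 of 20 and 14 of 19, and in co-culture hypoxia 11 of 11 and 11 of 11. Co-culture hypoxia kept no summit elsewhere among peaks of this width.

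Of the 15 segments with such a peak in 5 or more libraries, 12 had every summit by the low edge, and the exceptions were Ighv1-50, Ighv1-59 and Ighv8-9. The median position differed between the families. Over the 15, in 9 segments of family 1 it ran from 66.5 bp outside the segment to 21.5 bp inside it, written as -66.5 to 21.5 bp, and in 6 of family 8 from -135 to -85 bp. The ranges did not overlap, and the difference was not tested. At Ighv8-6 the 8 summits lay from -177 to -55 bp, and at Ighv1-58 from -21 to 64 bp.

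**Figure D4:**
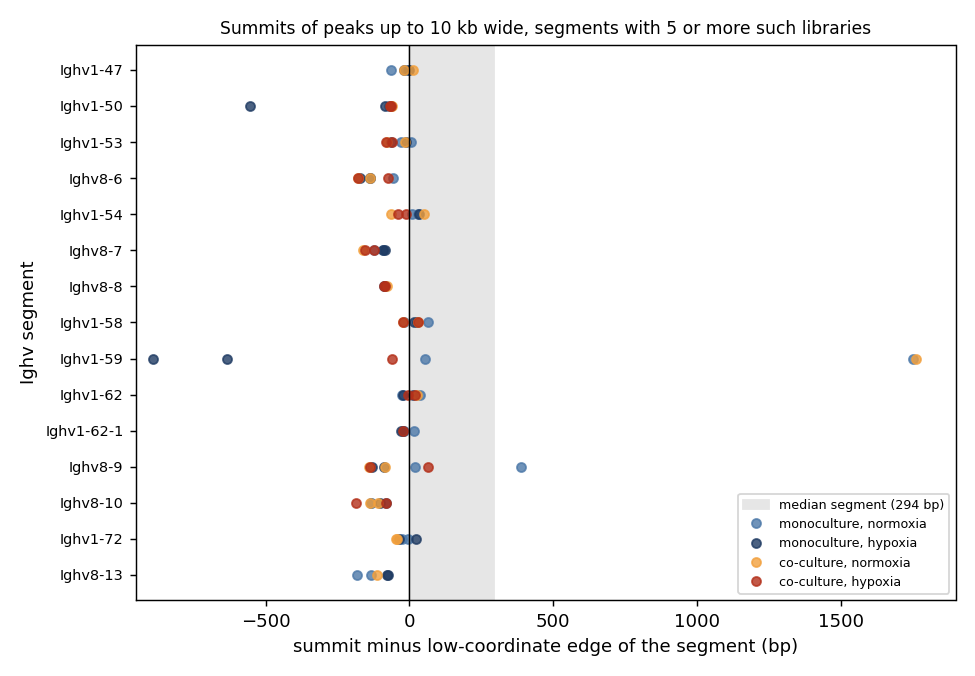
Position of the summit relative to the low-coordinate edge of the segment in bp (x axis, negative is outside) for the 15 segments with a peak up to 10 kb wide in 5 or more libraries (rows). Each point is 1 library, coloured by group, and the grey band is a segment of the median length, 294 bp. Points gather at the edge in 12 of the 15 rows, with family 8 further outside than family 1.

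The segments named in the choice lay outside the middle stretch. Ighv1-47, a V segment at chr12:114991108-114991401, ranked at 95.9 and 82.4 in monoculture normoxia, 94.8 and 96.8 in monoculture hypoxia, and 90.4 and 74.6 in co-culture normoxia, and it had no peak in either co-culture hypoxia library. Its summits held 52 and 34, 71 and 94, and 54 and 42 fragments in the same order. Its peaks were 352 to 725 bp wide and all 6 summits lay between -63 and 12 bp from the low edge. It was thus missing from hypoxic co-culture alone.

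Ighv8-4, at chr12:115024026-115024318, ranked at 34.1 and 60.7 in monoculture normoxia and at 86.6 and 90.1 in monoculture hypoxia, and it had no peak in any of the 4 co-culture libraries. Its summits held 15 and 22 fragments in normoxia and 49 and 59 in hypoxia. Its 4 summits lay from -122 to -13 bp. Within monoculture both hypoxia libraries ranked above both normoxia libraries.

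Ighv1-72, at chr12:115757984-115758277, followed the pattern of Ighv1-47. It ranked at 84.3 and 91.9, 70.0 and 83.3, and 58.2 and 61.0, and it was missing from both co-culture hypoxia libraries. At Ighv8-13 the monoculture summits held 18 and 18 fragments in normoxia and 31 and 56 in hypoxia, and of the co-culture libraries replicate 2 of normoxia alone had a peak, with 19 fragments. All of these calls stood in the equal-number lists at Ighv1-47 (6 libraries), Ighv8-4 (4) and Ighv1-72 (6), whereas Ighv8-13 kept 4 of 5.

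Merging the 8 lists gave 40784 regions, of which 31 lay within 1 kb of a segment. A region present in both libraries of the first group and in neither of the second was called gained, and the reverse was called lost. In hypoxia, co-culture against monoculture lost 7 of the 31 regions, at Ighv1-47, Ighv8-4, Ighv1-52, Ighv1-64, Ighv1-65 to Ighv1-71, Ighv1-72 and Ighv8-13, and gained none. Over all regions 3.76% were lost and 5.83% gained, and since the choice used this contrast nothing is read from the difference. Leaving out replicate 1 of monoculture hypoxia gave 15 lost.

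In normoxia, co-culture against monoculture lost 1 region, Ighv8-4, and gained 1, Ighv2-3, where 0.181% and 12.5% of all regions were lost and gained. Ighv2-3 had a peak in both co-culture normoxia libraries and in replicate 1 of monoculture hypoxia, at percentiles of 39.8, 17.4 and 31.3, and in no equal-number list. Over both oxygen levels Ighv8-4 was the 1 region lost, with 0.0270% of all regions, and none was gained, with 1.98%. Leaving out replicate 2 of co-culture normoxia gave 5 lost in normoxia and 3 over both oxygen levels.

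For oxygen, hypoxia against normoxia in co-culture lost 5 of the 31 regions and gained none, where 2.05% and 6.09% of all regions were lost and gained. The 5 were at Ighv2-3, Ighv1-47, Ighv1-52, Ighv1-65 to Ighv1-71 and Ighv1-72. Ighv1-65 to Ighv1-71 is 1 merged region of 227099 bp. Of its segments Ighv1-65 alone had a peak within 1 kb in both co-culture normoxia libraries, so not every segment in it was lost. This contrast shares the co-culture hypoxia libraries with the one above. Leaving out replicate 1 of co-culture normoxia gave 12 lost. In monoculture hypoxia lost 1 region, at Ighv1-63, and gained none, where 0.179% and 17.7% of all regions were lost and gained, and leaving out replicate 2 of normoxia gave 3 lost while leaving out replicate 1 of hypoxia gave 6 gained. Over both cultures none was gained or lost, with 2.08% and 0.0196% of all regions.

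Counted by segment, which does not depend on merging, 12 of 183 were lost with co-culture in hypoxia, and none was gained, where 0.599% of all genes were lost and 2.42% gained. They were Ighv1-47, Ighv8-4, Ighv1-60, Ighv1-64, Ighv1-65, Ighv8-11, Ighv1-67, Ighv1-68, Ighv1-69, Ighv8-12, Ighv1-72 and Ighv8-13. In replicate 2 of monoculture hypoxia, Ighv1-65, Ighv8-11, Ighv1-67, Ighv1-68, Ighv1-69 and Ighv8-12 were called through peaks wider than 10 kb alone. In normoxia 3 segments were lost with co-culture (Ighv8-4, Ighv1-66 and Ighv1-68, with 0.0421% of all genes) and Ighv2-3 was gained (6.04%). In replicate 2 of monoculture normoxia, Ighv1-66 and Ighv1-68 were called through the 196831 bp peak alone. In co-culture, hypoxia lost 7 (0.503% of all genes) and gained none (1.45%), and in monoculture it lost and gained none (0.0841% and 5.70%). Ighv8-4 and Ighv1-68 were lost over both oxygen levels, of 3 genes in all (0.00601%), while none was gained (0.869%). Over both cultures none was gained or lost with hypoxia (0.378% and 0.00400%). The peaks at Ighv1-68 ranked at 3.12 and 50.0 in normoxia and 7.17 and 22.2 in hypoxia, and 1 of its 4 calls stood in the equal-number lists.

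A peak in all 6 libraries outside co-culture hypoxia and in neither of its own was found at 4 segments, Ighv1-47, Ighv1-60, Ighv1-65 and Ighv1-72, and at 23 of all genes (0.0461%). No segment was missing in this way from any other group alone, where 1531 genes (3.07%) were missing from monoculture normoxia, 13 (0.0260%) from monoculture hypoxia and 7 (0.0140%) from co-culture normoxia. Without peaks wider than 10 kb, Ighv1-60 and Ighv1-65 kept a peak in 4 of the 6 libraries, and Ighv1-47 and Ighv1-72 in all 6. Of the 31 regions 3 were missing from co-culture hypoxia alone, at Ighv1-47, Ighv1-65 to Ighv1-71 and Ighv1-72, with 0.0858% of all regions. Within the merged region from Ighv1-65 to Ighv1-71, Ighv1-65 was the only segment with a peak in all 6 other libraries. None of the 31 regions was missing from monoculture normoxia alone (4.97%), monoculture hypoxia alone (0.0417%) or co-culture normoxia alone (0.0466%).

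The 1 kb limit cut between near neighbours. The closest peaks inside it lay 912, 922 and 931 bp from Ighv1-65 and 915 bp from Ighv1-61. The closest outside lay 1015 bp from Ighv1-63, 1023 bp from Ighv1-23, 1044 bp from Ighv1-52 and 1069 bp from Ighv1-68.

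The other genes of the pathway were read from lists of the recombination machinery, factors acting on the locus, and the remaining parts of the locus. Of 11 recombination genes 7 to 10 had a peak within 1 kb in a library, where 16.7% to 33.1% of all genes did. Rag2 had one in all 8 and Rag1 in none, and the end-joining genes Nhej1, Xrcc4, Xrcc6, Prkdc and Dclre1c, which encodes the hairpin-opening nuclease Artemis, had one in all 8. Of 14 factors 3 to 10 had a peak, and both counts were lowest in replicate 2 of monoculture normoxia, which also had the lowest share of all genes. The ubiquitous factors Yy1 and Pou2f1 and the lymphoid factor Ikzf1 had one in all 8, and Pax5, Pou2af1, Irf4 and Bcl11a in none.

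At the J segments, Ighj1 and Ighj2 had a peak in replicate 1 of monoculture normoxia, replicate 1 of monoculture hypoxia and both replicates of co-culture normoxia, and Ighj3 and Ighj4 had none. Of 8 constant region genes Ighg2b had a peak, in 3 libraries, and Ighm, Ighd, Ighg1, Ighg2c, Ighg3, Ighe and Igha had none. Zfp386 and Vipr2, the neighbours beyond the last V segments, had a peak in all 8 libraries, and Adam6a and Adam6b, which lie within the locus, in none.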

How the data were processed

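One peak list per ATAC-seq library was deposited by the authors. Per the submitters' processing notes the tools included Trimmomatic 0.36, HISAT2 2.1.0, Picard, SAMtools, deepTools and MACS2 2.1.1.2, with build mm10; settings, and the treatment of reads with several matches, are not given in the sources used here. The deposited −log10 p, −log10 q, score and fold are the authors' and were used within a list; the deposited summit, an offset in bp, was added to the peak start. The score was not used further. Read depth is not in the lists. Genes came from RefSeq GRCm38.p6. Peaks were merged where they overlapped by at least 1 bp. Fragments were solved from fold and p as a Poisson tail, tested on simulated data. Python 3.11.15, pandas 2.3.3, scipy 1.17.1 and Biopython 1.88 were used. The segments and lists were chosen with earlier results of these data known. Named segments were Ighv8-4, Ighv1-47, the up to 4 highest-ranked regions per contrast and direction, regions present in all 8 libraries, the widest peaks and the top segment of each library; others were chosen after their values were seen. No test was run, because the choice used these lists. One gene of the B lineage list is not reported here.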

Additional observations from a re-analysis of the deposited data

How the results depend on the processing

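The pooled differences in segments with a peak stayed below 0 for culture and for oxygen under every alternative run: overlap with the segment, 5 kb, equal-number lists, −log10 q of at least 5, no peaks over 10 kb, summits within 1 kb, and each library left out (culture -17.25 to -10.25, oxygen -9.25 to -2.25). The oxygen difference, -5.75 in the deposited lists, was within the replicate SD and below 0 in co-culture only; it was -11.75 in equal-number lists, beyond the SD and below 0 in both cultures, and -2 without peaks over 10 kb. Width and percentile differences did not hold. The median width difference, 22.5 bp for culture, was -74.6 within 5 kb, -75.6 at −log10 q of at least 5, and -115.5 to 160.5 with 1 library left out. For oxygen, 66.5 bp, it was -0.625 within 5 kb and -71.5 to 204.5 with 1 left out. The median percentile difference for culture, 14.3, was 3.55 with overlap, 3.47 within 5 kb, 1.93 at −log10 q of at least 5, -10.6 in equal-number lists, and 9.53 to 19.02 with 1 left out. For oxygen, -12.2, it was 14.7 in equal-number lists, 7.73 without peaks over 10 kb, and -17.0 to -7.47 with 1 left out. Regions lost with hypoxia in co-culture numbered 3 when 25% of a region had to be covered (5 to 12 with 1 left out), and with co-culture in hypoxia 4 (7 to 15). Regions lost with co-culture in normoxia numbered 2 within 5 kb, 4 in equal-number lists and 3 without peaks over 10 kb (1 to 5), and over both oxygen levels 2 within 5 kb and 2 in equal-number lists (1 to 3). Regions gained with co-culture in normoxia numbered 0 in equal-number lists (1 to 3), and in hypoxia 0 to 1 with 1 left out. With hypoxia in monoculture, 1 was gained at −log10 q of at least 5 and 1 without peaks over 10 kb (0 to 6); 0 were lost with overlap, 0 at −log10 q of at least 5, and 2 at 25% cover (1 to 3). Over both cultures 0 to 1 were lost with 1 left out. The causes were not tested. Absence from a list can mean a signal under the authors' threshold, and read depth is unknown. No paired analysis was possible because the results come from no test.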

Other observations

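Peaks up to 10 kb wide also recurred between segments. Away from any segment by more than 1 kb, 4 merged regions of such peaks had a peak in 6 libraries and 3 in 5 libraries, all between Ighv1-50 and Ighv8-10. The most isolated of the 4 was chr12:115403765-115405265, 16777 bp from Ighv1-62-1, at percentiles from 32.4 to 61.9. No region of this kind had a peak in 7 or 8 libraries, whereas 4 and 6 of the regions within 1 kb of a segment did.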
